A study of Mus musculus with 22 samples.

Results

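Indian hedgehog and parathyroid hormone-related protein form the signalling loop that sets how long growth plate chondrocytes keep dividing, and 9 genes of this loop are described here: the ligands Ihh and Pthlh, the receptors Pth1r, Ptch1 and Smo, the transcription factors Gli1, Gli2 and Gli3, and the ligand-binding inhibitor Hhip. The genes were chosen by symbol, and all 9 were found among the 34866 genes of the culture tables and among the 23911 genes of the cartilage table. The series asked how loss of Dnmt1, the enzyme that copies DNA methylation to the new strand after replication, alters chondrocytes. Messenger RNA was sequenced in 22 samples, 14 of cultured chondrocytes and 8 of cartilage.

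Primary chondrocytes came from knee articular cartilage of mice at postnatal day 3 to 5. Control cultures had the genotype Dnmt1 flox, without a Cre in the label, and mutant cultures (cKO) had the genotype Prrx1-Cre;Dnmt1 flox/flox. At day 0, before any BMP2, 3 cultures of each genotype were taken, and a further 4 of each were taken after 3 days with BMP2, labelled 100 ng/µl. BMP2 is a growth factor that drives chondrocytes to mature. Cartilage was taken at postnatal day 5 from 4 control samples, labelled flox, and 4 cKO samples, with replicates 1 and 2 male and replicates 3 and 4 female in each genotype, and was treated with collagenase to remove connective tissue. Prrx1-Cre acts in the mesenchyme of the early limb bud, so the deletion is shared by all its descendants and is not limited to chondrocytes. The labels call the culture samples biological replicates. They do not say which animals the samples came from, so p-values measure the spread between these samples.

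In the growth plate, Ihh is made by chondrocytes that have just left the cell cycle. It binds Ptch1, which releases Smo, and Smo signals through the primary cilium to the Gli transcription factors. Ihh also raises Pthlh near the joint end of the bone, and PTHrP acts back through Pth1r, a receptor coupled to cyclic AMP, to keep chondrocytes from maturing. Gli1, Ptch1 and Hhip are themselves switched on by Hedgehog signalling and are used as its readouts.

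The day 0 libraries held 41749546 to 51741669 counts, the day 3 libraries 14434320 to 18918905 and the cartilage libraries 1100198 to 1888896. Dnmt1 itself was lower in cKO in each setting, with log2 fold changes of -2.44 at day 0, -1.41 at day 3 and -1.66 in cartilage (adjusted p = 1.62e-08, 0.00625 and 6.34e-05, edgeR), and its groups did not overlap. Of all genes tested in the cultures, 31.6% were lower and 33% higher in cKO at day 0, and 22.6% were lower and 25.5% higher at day 3. In the cKO cultures, 12 of 13 chondrocyte markers were lower at each day. Their summed level lay at 160500 to 170000 CPM (counts scaled to library size) in control and 55730 to 68110 CPM in cKO at day 0, and at 101100 to 125200 CPM in control and 1572 to 17910 CPM in cKO at day 3. Muscle markers lay at 6.84 to 7.69 CPM in control and 44.04 to 55.58 CPM in cKO at day 0, and at 1.52 to 2.28 and 146.3 to 1896 CPM at day 3. Of the tested muscle markers, 5 of 6 and 8 of 8 were higher. The muscle determination gene Myod1 was among them, with means of 0 CPM in control and 11.38 CPM in cKO at day 0. Its means at day 3 were 0.049 and 28.64 CPM. Myf5, another muscle determination gene, was at 0 in all day 3 libraries. One library stood apart: cKO day 3 replicate 4 held the lowest chondrocyte sum and differed from the other cKO day 3 libraries by 134.2 to 149.5 chi-square units per degree of freedom, against 7.89 to 11.62 among those. Without it, 13 of 13 chondrocyte and 9 of 9 tested muscle markers were called in the same directions at day 3. Perichondrial and fibroblast markers were lower for 7 of 10 and higher for 2 at day 0, at a summed 5210 to 7616 CPM in control and 3064 to 3722 CPM in cKO, and osteoblast markers were higher for 4 of 5 tested at day 3, at 44.72 to 77.54 and 151.7 to 387.6 CPM (5 of 5 without replicate 4). In cartilage the libraries were made in 2 pools, pool 1 holding the control and pool 2 the cKO samples, so pool and genotype cannot be told apart. The part that these differences play in the results below was not tested.

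The bases before the start of 3 of the genes are shown because Dnmt1 acts on CpG dinucleotides, printed in capitals. Ihh and Pth1r were the 2 members that were lower in cKO in all 3 settings, and Hhip carried the only match to a cyclic AMP response element. Gene positions below are from GENCODE M21 on GRCm38. The sequences are the 250 bases before the RefSeq start on GRCm38.p6, read 5′ to 3′ on the gene's strand, at chr1:74951673-74951922 (minus strand) for Ihh, chr9:110747146-110747395 (minus strand) for the most upstream of 3 Pth1r starts and chr8:80058009-80058258 (minus strand) for Hhip.
Ihh: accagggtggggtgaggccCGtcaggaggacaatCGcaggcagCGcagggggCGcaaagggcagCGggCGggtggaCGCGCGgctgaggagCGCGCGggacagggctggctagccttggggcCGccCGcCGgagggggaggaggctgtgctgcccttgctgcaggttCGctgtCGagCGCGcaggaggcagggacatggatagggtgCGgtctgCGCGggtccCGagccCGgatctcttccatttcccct
Pth1r: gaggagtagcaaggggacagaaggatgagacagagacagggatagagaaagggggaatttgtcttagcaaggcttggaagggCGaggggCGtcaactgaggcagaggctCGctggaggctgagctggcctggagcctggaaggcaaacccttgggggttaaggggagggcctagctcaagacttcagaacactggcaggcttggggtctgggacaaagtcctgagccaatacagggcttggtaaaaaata
Hhip: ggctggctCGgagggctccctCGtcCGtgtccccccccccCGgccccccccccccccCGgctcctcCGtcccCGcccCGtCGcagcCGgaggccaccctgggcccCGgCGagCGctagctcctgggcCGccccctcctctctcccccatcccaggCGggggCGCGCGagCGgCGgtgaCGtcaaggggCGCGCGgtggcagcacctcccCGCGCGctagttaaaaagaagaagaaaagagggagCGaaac
The printed bases hold 24 CpG for Ihh, 3 for the upstream start of Pth1r and 28 for Hhip. The downstream Pth1r starts, not printed, have 16 and 22 CpG in their 250 bases. Which Pth1r start these samples use was not tested. Promoter windows of 300 bases (250 before and 50 after the start) were found for 8 of the 9 genes, Gli1 being the exception, and made 10 windows in all. They held 5 to 47 CpG, and all except the upstream Pth1r window held at least 17, while the median of all 32851 mouse windows was 7. The Gli binding motif GACCACCCA, searched on both strands, was in no window of these genes and in 0.253% of all windows, and its core CCACCCA was likewise in none of them and in 9.3% of all windows. The cyclic AMP response element TGACGTCA was found once, 75 bases before the Hhip start, and in 1.79% of all windows. These matches describe letters only, and DNA methylation was not measured in the files used here.

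At day 0 the loop was lower in cKO cultures at nearly every step. Of the 9 genes, 7 were lower, 1 was higher and 1 was not called (adjusted p under 0.05 over all genes, edgeR), where 64.5% of the 15530 genes tested were called, 31.6% lower and 33% higher. The median log2 fold change of the 9 was -0.56, and that of all genes tested was 0.01. After 3 days of BMP2, 6 of the 7 genes that could be tested were lower and none was higher, against 48.1% of 13924 genes called, 22.6% lower and 25.5% higher; the median was -1.03 for the 7 and 0.01 for all genes. Without cKO day 3 replicate 4 the same 6 were lower, with a median of -1.11. In cartilage 2 of the 8 tested were lower, against 6.19% of 8793 genes called, 3.04% lower and 3.15% higher, with a median of -0.53 for the 8 and 0.01 for all genes. Members that miss a test had too few counts: Pthlh and Hhip at day 3 and Pthlh in cartilage.

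**Figure D1:**
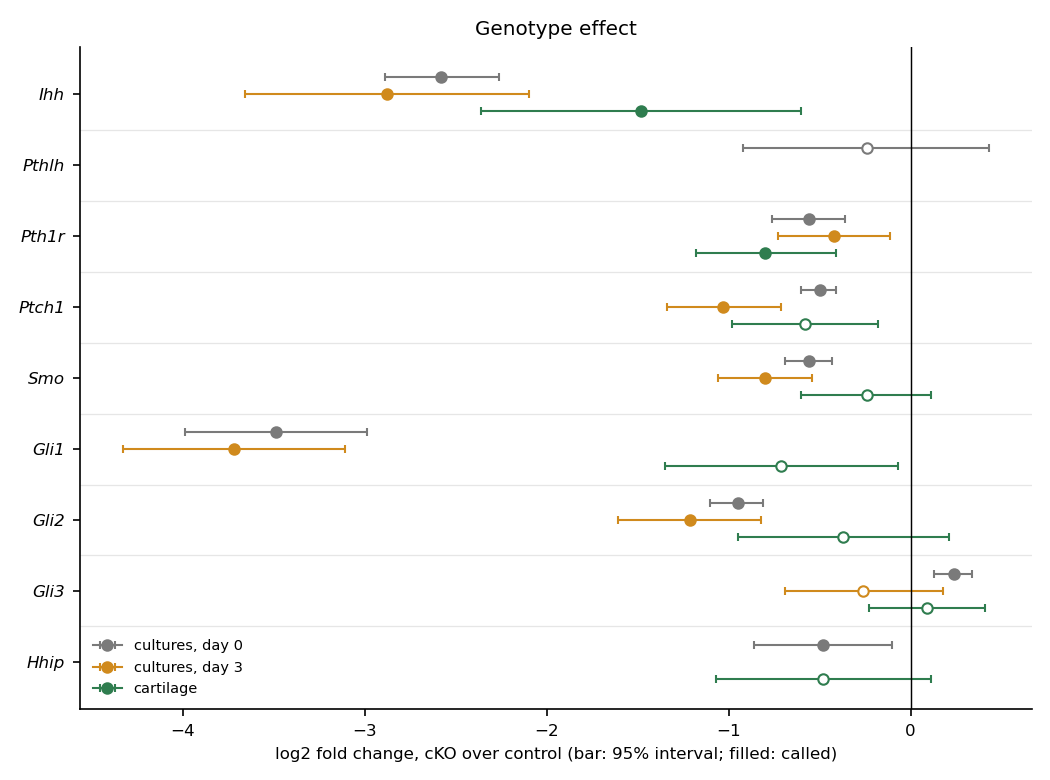
Log2 fold change of each gene, cKO over control (x axis), in cultures at day 0, cultures at day 3 and cartilage, with the 95% interval as a bar; filled points passed the test and open points did not. Ihh and Gli1 lie furthest to the left in cultures, at -2.58 and -3.49 at day 0, and Gli3 is the one filled point to the right of 0.

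The ligand Ihh (chr1:74945315-74951672) fell strongly in the cKO cultures. At day 0 it was at 5.72, 5.32 and 5.93 CPM in the control libraries and at 1.13, 0.872 and 0.853 CPM in the cKO libraries. All cKO libraries were below all control libraries, and the log2 fold change was -2.58 ± 0.139 (SE, adjusted p = 5.98e-07, n = 3 per group, edgeR). After 3 days of BMP2 the control libraries held 10.07, 5.21, 8.04 and 9.69 CPM and the cKO libraries 1.35, 1.28, 1.30 and 0.461 CPM. The groups again lay apart, with a log2 fold change of -2.88 ± 0.342 (adjusted p = 2.65e-04, edgeR). The lowest value was that of replicate 4, and without it the fold change was -2.64 ± 0.260 (adjusted p = 3.22e-05). Because these are bulk samples, fewer cells that make a transcript and less of it per cell cannot be told apart, for Ihh or for any gene below.

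In cartilage Ihh was at 23.5, 52.5, 30.6 and 21.6 CPM in control and at 7.38, 31.6, 3.48 and 5.04 CPM in cKO libraries. All cKO libraries lay below every control library except replicate 2, a male, which lay within the control range. The log2 fold change was -1.48 ± 0.414 (adjusted p = 0.0465, edgeR), and without that library it was -2.44 ± 0.373 (adjusted p = 6.69e-04). The call was close to the threshold: over 15 alternative analyses the log2 fold change ran from -2.44 to -1.17 and the adjusted p from 1.36e-07 to 0.152, and 8 of the 15 lost the call, 6 of them by leaving out another library. In the same replicate 2 the summed level of 14 markers of prehypertrophic and hypertrophic chondrocytes, late ones included, was 3272 CPM against 1594 to 2098 CPM in the other cKO libraries and 2784 to 4130 CPM in control. That of 7 osteoblast markers was 239.7 against 14.27 to 29.52 CPM in the other cKO libraries and 69.03 to 262.7 CPM in control. Ibsp is in both lists, so these sums are not independent. The mean of Ibsp in cKO cartilage was 60.8 CPM, against 8.469 CPM for the osteoblast marker Sp7. Only these 2 of the 7 osteoblast markers had enough counts to be tested in cartilage. The osteoblast sum is therefore largely that of Ibsp and is not a level shared by 7 markers.

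The second ligand, Pthlh (chr6:147252101-147264183), was close to the limit of detection. At day 0 it was at 0.765, 0.950 and 0.785 CPM in control and 0.624, 0.459 and 1.01 CPM in cKO cultures, from 20 to 52 counts per library. The groups overlapped, and the log2 fold change of -0.24 had a 95% interval from -0.92 to 0.43 (adjusted p = 0.497, edgeR). At day 3, 7 of the 8 libraries held 0 to 6 counts, and cKO replicate 4 held 86 counts, or 4.95 CPM. In cartilage, 3 to 9 counts per control library and 6 to 12 per cKO library gave 6.61, 6.67, 2.70 and 3.02 CPM in control and 9.84, 8.53, 5.21 and 6.72 CPM in cKO. Those groups overlapped, and the gene did not pass the filter on low counts for the genotype test, so it was not tested there.

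**Figure D2:**
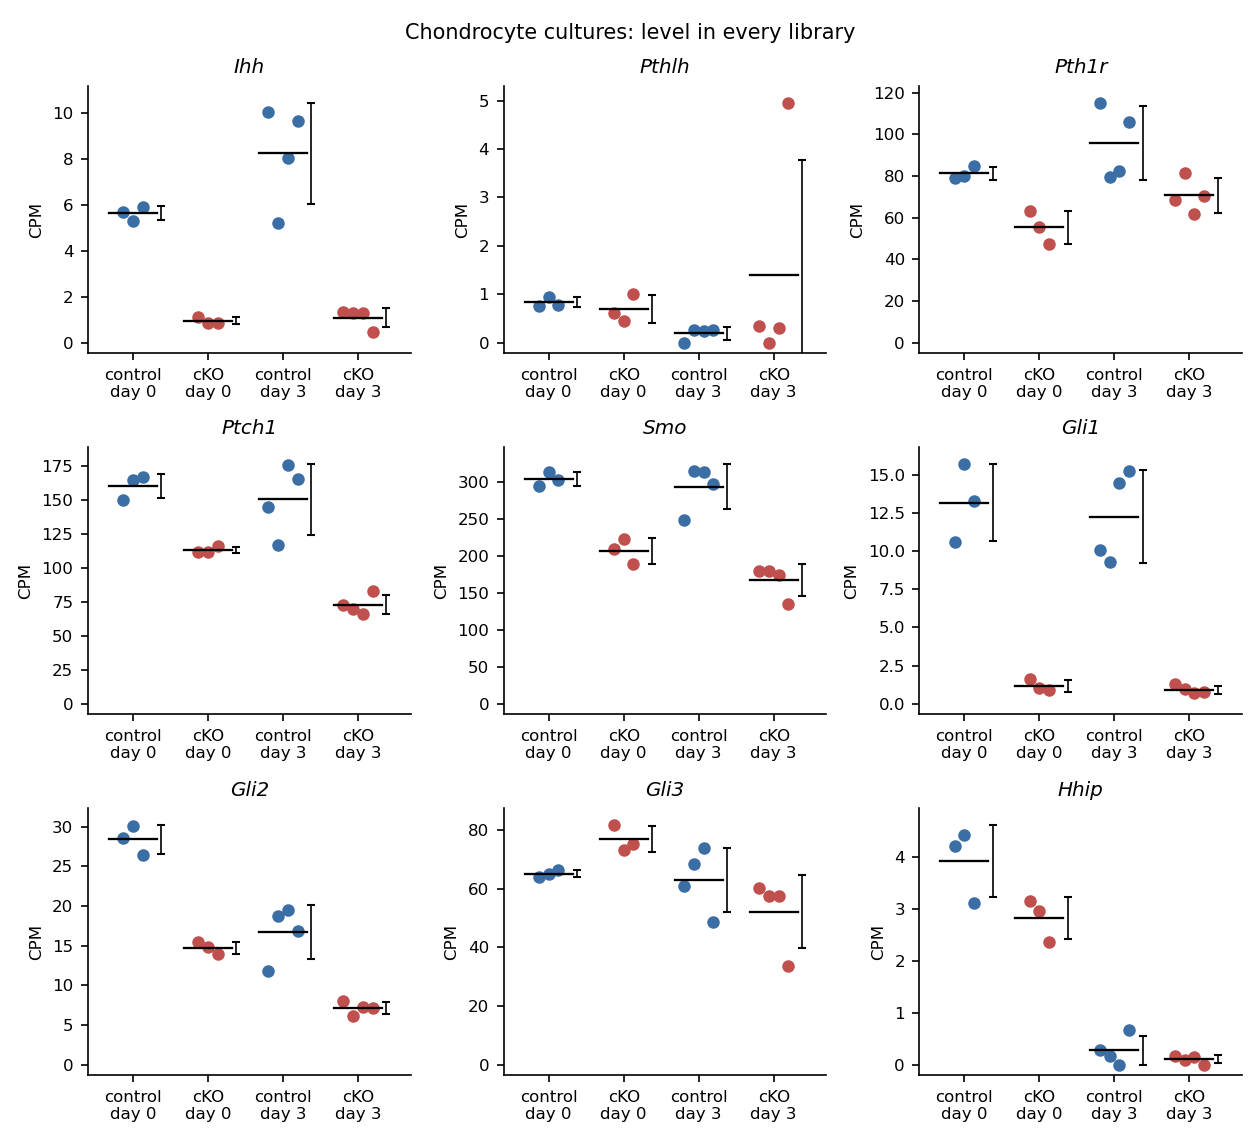
Level of each gene in every culture library in CPM (y axis, its own range in each panel), for control (blue) and cKO (red) at day 0 (3 libraries each) and day 3 (4 each); lines are means and bars are ± 1 SD, which run past the lower edge where they exceed the mean. For Ihh, Ptch1, Smo, Gli1 and Gli2 all cKO points lie below all control points of the same day, and the high Pthlh point at day 3 is cKO replicate 4.

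Pth1r, the PTHrP receptor (chr9:110722085-110747145), was lower in all 3 settings, by smaller amounts. Control libraries at day 0 held 79.2, 79.8 and 84.9 CPM and cKO libraries 63.4, 55.4 and 47.6 CPM, without overlap (log2 fold change -0.56 ± 0.0882, adjusted p = 4.42e-04, edgeR). At day 3 the values were 115.2, 79.3, 82.7 and 106.2 CPM in control and 68.6, 81.7, 61.9 and 70.6 CPM in cKO. One cKO library lay within the control range, and the log2 fold change of -0.42 ± 0.137 (adjusted p = 0.0323, edgeR) lost its call in 5 of 13 alternatives, in which the adjusted p reached 0.0832.

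In cartilage Pth1r was at 204.9, 291.0, 234.8 and 176.0 CPM in control and 146.0, 203.9, 106.0 and 81.4 CPM in cKO. The cKO value of replicate 2 lay within the control range and the other three below it. The log2 fold change was -0.80 ± 0.182 (adjusted p = 0.0163, edgeR), -0.97 ± 0.177 (adjusted p = 0.00306) without cKO replicate 2, and lost its call in 4 of 15 alternatives (without control replicate 2, cKO replicate 1 or cKO replicate 4, and without sex in the model), with adjusted p up to 0.0741. Exons of Pth1r overlap those of Myl3 on the opposite strand, a muscle myosin light chain. Myl3 was at 0.217 to 0.685 CPM in the cultures and at 0 to 1.005 CPM in cartilage. The part of this overlap in the Pth1r counts was not tested.

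Ptch1, the Hedgehog receptor and a target of the pathway (chr13:63508328-63573598), was lower in cKO cultures at both days. The control libraries at day 0 held 149.6, 164.1 and 166.4 CPM and the cKO libraries 111.5, 111.7 and 115.9 CPM (log2 fold change -0.50 ± 0.0425, adjusted p = 7.90e-06, edgeR). At day 3 they held 144.6, 116.4, 175.2 and 165.3 CPM in control and 72.5, 69.8, 66.2 and 82.5 CPM in cKO, again without overlap (log2 fold change -1.03 ± 0.138, adjusted p = 4.99e-04, edgeR). The genotype effect was thus larger at day 3 than at day 0, by -0.55 ± 0.165 on the log2 scale, with a 95% interval from -0.90 to -0.19 (adjusted p = 0.0396, edgeR, interaction). This was the only one of the 9 genes called for that difference, against 16.8% of the 14909 genes tested, 6.89% in the same direction and 9.94% in the other. The call was lost in 12 of 18 alternatives, with adjusted p from 0.006 to 0.099; without cKO day 3 replicate 4 it was -0.61 ± 0.153 (adjusted p = 0.00947).

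In cartilage Ptch1 was at 135.8, 217.7, 152.9 and 83.5 CPM in control and 105.8, 117.7, 84.3 and 79.8 CPM in cKO. The groups overlapped through the lowest control library, replicate 4. The log2 fold change of -0.58 ± 0.189 was not called (adjusted p = 0.0856, edgeR). It was called without control replicate 4 (-0.77, adjusted p = 0.0144) and without the filter on low counts (-0.61, adjusted p = 0.00545).

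Smo, the membrane protein that Ptch1 holds in check (chr6:29735503-29761365), was the most abundant of the 9 in cultures. It stood at 295.4, 313.7 and 303.2 CPM in control and 208.9, 223.6 and 188.9 CPM in cKO at day 0. The difference was -0.56 ± 0.0572 (adjusted p = 2.73e-05, edgeR) at day 0 and -0.80 ± 0.114 (adjusted p = 6.86e-04, edgeR) at day 3, where control libraries ran from 249.3 to 315.3 and cKO libraries from 134.9 to 180.1 CPM. The groups did not overlap at either day, and without cKO day 3 replicate 4, the lowest library, the difference was -0.72 (adjusted p = 1.46e-04). In cartilage it was -0.24 with a 95% interval from -0.60 to 0.11 (adjusted p = 0.413, edgeR), at 40.0 to 54.3 CPM in control and 32.1 to 43.5 CPM in cKO.

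Gli1 (chr10:127329882-127341974), the Gli factor that is itself a target of the pathway, had the lowest log2 fold change of the 9 in cultures. It was at 10.6, 15.7 and 13.2 CPM in control and at 1.63, 1.06 and 0.872 CPM in cKO at day 0 (-3.49 ± 0.222, adjusted p = 1.42e-06, edgeR). At day 3 the control libraries held 10.07, 9.28, 14.5 and 15.2 CPM and the cKO libraries 1.29, 0.937, 0.678 and 0.749 CPM (-3.72 ± 0.267, adjusted p = 2.42e-05, edgeR). No cKO library came near the lowest control library at either day, and the fold change stayed between -3.78 and -3.30 over 11 alternatives at day 0 and between -3.93 and -3.60 over 13 at day 3. Exons of Gli1 overlap those of Arhgap9 on the opposite strand, which moved the other way, from 0.531 to 0.739 CPM in control to 1.71 to 2.18 CPM in cKO at day 0 (log2 fold change 1.69, adjusted p = 7.31e-05). The culture kit keeps strand, but the strand setting of the counting was not given in the sources used here.

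In cartilage Gli1 was at 14.7, 15.0, 14.4 and 9.05 CPM in control and 6.56, 5.97, 10.4 and 8.395 CPM in cKO, from 7 to 20 counts per library. One cKO library lay above the lowest control library. The log2 fold change of -0.71 ± 0.300 was not called with the whole-number counts (adjusted p = 0.18, edgeR) and was called with the authors' estimated counts of the same libraries (-0.94 ± 0.240, adjusted p = 0.0335).

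Gli2, the main activator downstream of Smo (chr1:118834132-119053619), was lower in cKO cultures. It was at 28.6, 30.1 and 26.5 CPM in control and 15.4, 14.8 and 13.9 CPM in cKO at day 0 (-0.95 ± 0.0641, adjusted p = 1.98e-06, edgeR). At day 3 it was at 11.8 to 19.5 CPM in control and 6.12 to 8.04 CPM in cKO (-1.21 ± 0.172, adjusted p = 6.56e-04, edgeR). The groups did not overlap at either day. In cartilage they did, at 9.89 to 21.1 CPM in control and 9.84 to 15.1 CPM in cKO, and the log2 fold change was -0.37 (95% interval -0.95 to 0.21, adjusted p = 0.448, edgeR).

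Gli3, which acts mainly as a repressor of Hedgehog targets when the signal is off (chr13:15463235-15730026), was the only member that was higher in cKO. At day 0 it was at 64.2, 65.0 and 66.4 CPM in control and 81.8, 73.4 and 75.4 CPM in cKO, without overlap, a small rise of 0.24 ± 0.0443 (adjusted p = 0.00128, edgeR). In the fit of all 14 cultures together, which shares the wider spread of day 3, the same rise of 0.24 was not called (adjusted p = 0.321). At day 3 Gli3 was at 48.7 to 73.8 CPM in control and at 60.3, 57.5, 57.5 and 33.8 CPM in cKO, and was not called (-0.26, 95% interval -0.69 to 0.18, adjusted p = 0.298, edgeR). Without cKO replicate 4 that value was -0.11 (adjusted p = 0.488). In cartilage it was 0.09 (95% interval -0.23 to 0.41, adjusted p = 0.766, edgeR). Between day 0 and day 3 the genotype effect on Gli3 moved by -0.51 (95% interval -1.04 to 0.02, adjusted p = 0.18), so a change of the effect with day was not called for Gli3.

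Hhip, the membrane protein that binds and sequesters Hedgehog ligands (chr8:79965851-80058006), was at 4.22, 4.41 and 3.12 CPM in control and 3.15, 2.96 and 2.37 CPM in cKO cultures at day 0. The highest cKO library lay just above the lowest control library. The log2 fold change of -0.48 ± 0.167 was called (adjusted p = 0.0301, edgeR) but lost the call in 4 of 11 alternatives, with adjusted p up to 0.435. At day 3 it was at 0 to 10 counts in control and 0 to 3 counts in cKO libraries, too few to test. In cartilage Hhip was at 37.5, 31.7, 48.6 and 34.2 CPM in control and at 16.4, 48.6, 19.98 and 23.5 CPM in cKO. All cKO libraries lay below all control libraries except replicate 2, which was at the level of the highest control library. Its exons overlap those of Gm27820, an RNA gene on the opposite strand. The log2 fold change was -0.48 (95% interval -1.07 to 0.11, adjusted p = 0.334, edgeR), and -0.95 ± 0.211 without cKO replicate 2 (adjusted p = 0.0130).

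**Figure D3:**
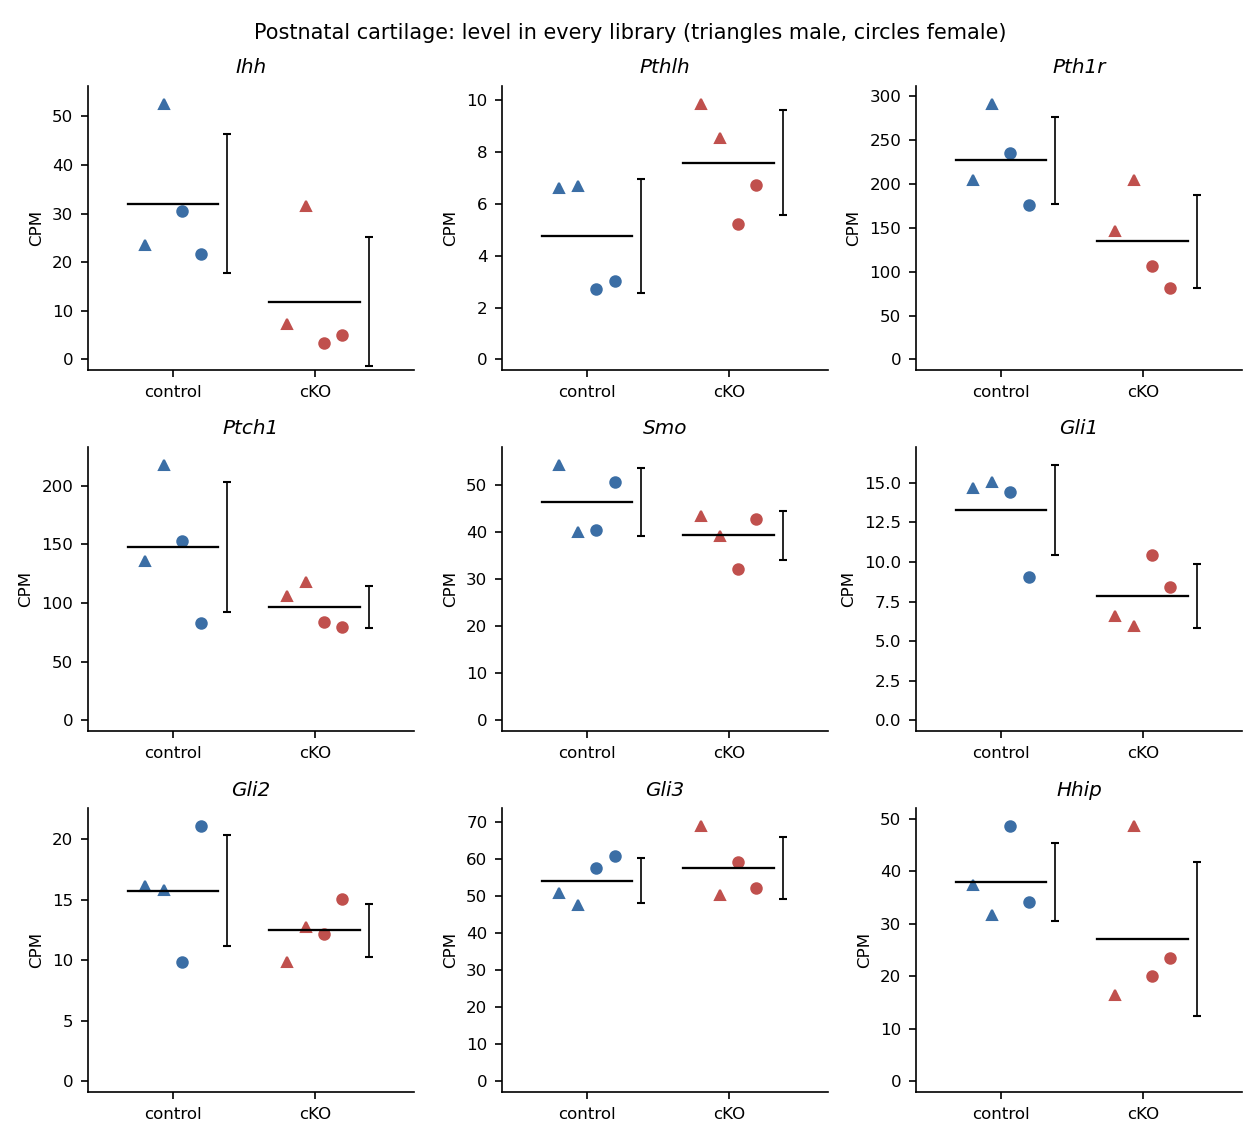
Level of each gene in every cartilage library in CPM (y axis, its own range in each panel), for 4 control (blue) and 4 cKO (red) libraries, with triangles for males and circles for females; lines are means and bars are ± 1 SD. For Ihh and Hhip the high cKO triangle is replicate 2, at 31.6 and 48.6 CPM, and the other cKO points lie below all control points.

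None of the 9 genes was called for a difference between the genotype effects of female and male cartilage, where 1 of 9687 genes, 0.0103%, was called. None had an unadjusted p under 0.05 in edgeR, and DESeq2 also called none. The largest value was that of Ihh, at -1.59 with a 95% interval from -3.40 to 0.22, and without cKO replicate 2 it was -0.22. With 2 libraries for each sex and genotype the intervals are wide.

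Set per kilobase of exon, so that levels can be compared between genes in the cultures, the control order at day 0 was Smo, Pth1r, Ptch1, Gli3, Gli2, Gli1, Ihh, Pthlh and Hhip. The means fell from 54.1 ± 1.63 CPM per kb (SD, n = 3) for Smo through 27.8 ± 1.06 for Pth1r and 11.3 ± 0.642 for Ptch1 to 2.64 ± 0.509 for Gli1 and 1.86 ± 0.102 for Ihh. Pthlh at 0.515 ± 0.0629 and Hhip at 0.431 ± 0.0770 CPM per kb did not differ beyond their spread. In cKO cultures at day 0 the order of Smo and Pth1r was the same, Gli3 at 8.02 ± 0.459 and Ptch1 at 7.97 ± 0.175 CPM per kb were at one level, and Gli1 had the lowest mean, at 0.238 ± 0.0795 CPM per kb, which did not differ beyond its spread from Hhip at 0.311 ± 0.0449 and Ihh at 0.312 ± 0.0504. In control cultures at day 3 Ihh at 2.71 ± 0.725, Gli1 at 2.45 ± 0.604 and Gli2 at 2.43 ± 0.501 CPM per kb did not differ beyond their spread (n = 4). The cartilage libraries read the 3′ ends of transcripts, and levels were not compared between genes there.

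From day 0 to day 3 of BMP2, members were called in both genotypes, and counts of calls do not test a difference between them. That difference was called for 1 of the 9 genes, Ptch1, where 16.8% of all genes tested were called. The Ptch1 call was lost in 12 of 18 alternatives. In control, 2 of the 9 genes fell and none rose, against 56.9% of 14909 genes called, 28.8% lower and 28.1% higher, with a median of -0.09 for the 9. In cKO, 5 fell and 1 rose, against 62.2% called, 29.8% lower and 32.4% higher, with a median of -0.37. Day, BMP2 and count table changed together and cannot be told apart. The changes and the genotype effects of the cultures use the same libraries and are not independent of each other.

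The 2 genes that fell in control cultures were Gli2 (-0.76 ± 0.140, adjusted p = 4.59e-04, edgeR) and Hhip. Hhip went from 135 to 209 counts per library at day 0 to 0 to 10 counts at day 3, and summed over libraries its level was 15-fold lower (exact 95% interval 9.29 to 26, counting error only; adjusted p = 6.38e-05, edgeR). In cKO cultures it went from 122 to 131 counts to 0 to 3 counts, a 26-fold lower level (13.1 to 60.8, counting error only; adjusted p = 3.13e-05, edgeR). Whether the fall differed between genotypes was tested and not called (-0.81, 95% interval -2.78 to 1.17, adjusted p = 0.599).

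In cKO cultures Gli2 also fell (-1.04 ± 0.144, adjusted p = 4.41e-05, edgeR), as did Ptch1 (-0.64 ± 0.116, adjusted p = 4.04e-04), Gli3 (-0.56 ± 0.172, adjusted p = 0.0128) and Smo (-0.31 ± 0.108, adjusted p = 0.0249). Without cKO day 3 replicate 4 these were -1.04, -0.70, -0.39 and -0.21, each still called. In control the changes of Ptch1, Gli3 and Smo were -0.09, -0.05 and -0.05, none of them called (adjusted p = 0.538, 0.83 and 0.727). Pth1r rose slightly in cKO (0.35 ± 0.138, adjusted p = 0.0410, edgeR), a call lost in 9 of 19 alternatives; its value in control was 0.24 (95% interval -0.06 to 0.53, adjusted p = 0.161), and the difference between the genotypes was 0.11 (95% interval -0.30 to 0.53, adjusted p = 0.74).

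Ihh was 0.54 higher at day 3 than at day 0 in control cultures on the log2 scale, with a 95% interval from -0.04 to 1.12 (adjusted p = 0.103, edgeR). It was called in 4 of 19 alternatives, among them the fits without cKO day 3 replicate 4 and with control cultures alone, at the same value (adjusted p = 0.0182 and 0.0406). In cKO it was 0.22 (95% interval -0.46 to 0.90, adjusted p = 0.566), and Gli1 was not called in either genotype (-0.10 and -0.37, adjusted p = 0.734 and 0.307). Pthlh was not called in control (-2.05, adjusted p = 0.171) or cKO (0.97, adjusted p = 0.413). Without cKO day 3 replicate 4 it was lower at day 3 in both genotypes (-2.04 and -1.72, adjusted p = 0.00782 and 0.0283, edgeR).

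**Figure D4:**
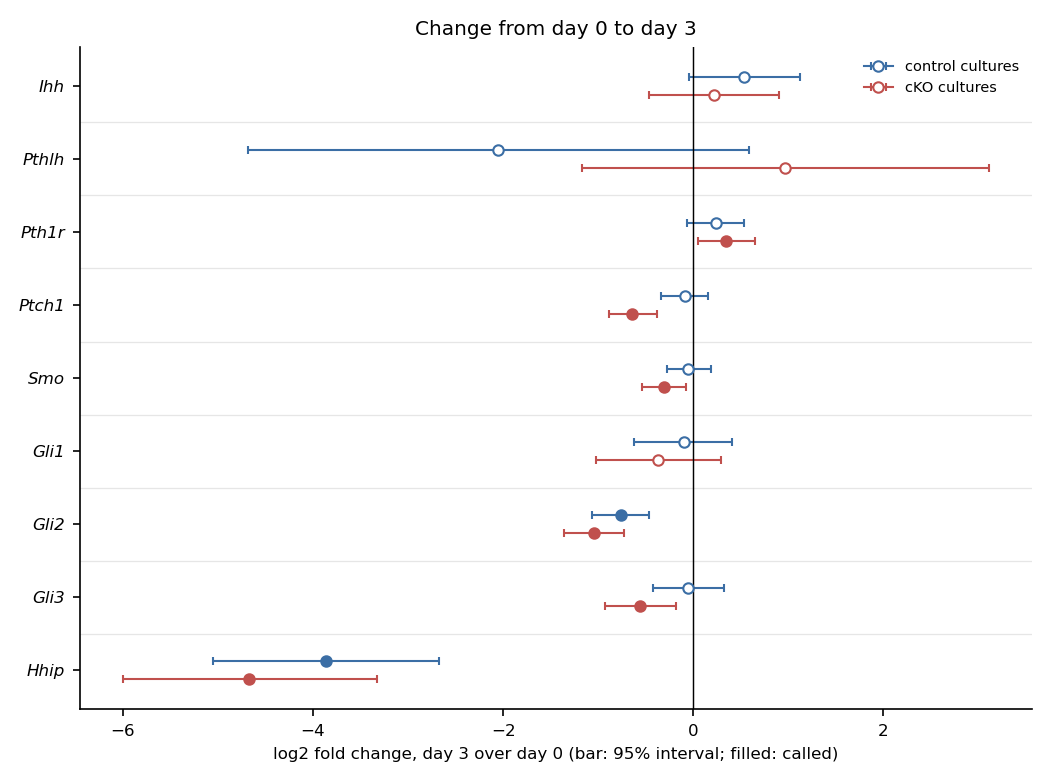
Log2 fold change of each gene from day 0 to day 3 (x axis) in control (blue) and cKO (red) cultures, with the 95% interval as a bar; filled points passed the test. Hhip lies furthest to the left in both genotypes, and Ptch1, Smo, Gli3 and Pth1r are filled in cKO and open in control; the difference between the genotypes was called for Ptch1 and for none of the other eight.

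Genes that make or release Hedgehog ligands and spread them between cells gave a mixed picture, and those named here and below were taken by size from lists chosen with earlier results of these data known. At day 0, 5 of the 9 tested were lower and 1 higher, where 31.6% and 33% of all genes were. At day 3, 4 of 8 were lower and 1 higher, where 22.6% and 25.5% of all genes were. Scube2, a secreted protein that helps lipid-bearing Hedgehog leave the cell, fell by 2.87 on the log2 scale at day 0 (adjusted p = 3.47e-07, edgeR) and was at a mean of 0.164 CPM in cKO against 1.72 CPM in control at day 3 (adjusted p = 0.00295). The glypican Gpc3, which binds Hedgehog at the cell surface, had values of -1.48 and -2.23 at the 2 days (adjusted p = 4.75e-06 and 0.00129). Scube1 was lower in all 3 settings (-0.60, -0.77 and -1.08, adjusted p = 2.45e-05, 0.0459 and 0.0433) and was the only one of 8 tested that was called in cartilage. Scube3 was higher at day 0 (0.66), and Ext1, which builds heparan sulfate chains, was higher at day 3 (0.61, adjusted p = 0.0484).

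Among 7 other surface receptors and partners of Smo, 3 were lower and none higher at day 0, where 31.6% and 33% of all genes were. With all libraries, 2 of 6 tested were lower and none higher at day 3, where 22.6% and 25.5% of all genes were. Without cKO day 3 replicate 4, 1 of the 6 was higher and 2 were lower. The co-receptor Boc was lower at both days (-0.63 and -0.60, adjusted p = 9.72e-06 and 0.00494, edgeR), Lrp2 and Cdon at day 0 (-1.30 and -0.18) and the Smo partner Evc at day 3 (-0.46, adjusted p = 0.00463). In cartilage 0 of 5 tested were called by edgeR or DESeq2, and 1 had an unadjusted p under 0.05 in edgeR.

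Of 14 regulators of the Gli proteins inside the cell, 4 were higher and 4 lower at day 0, where 33% and 31.6% of all genes were. At day 3, 1 was higher and 4 were lower, where 25.5% and 22.6% of all genes were. In cartilage 1 was higher and 2 were lower of 13 tested, where 3.15% and 3.04% of all genes were. Kif7, a ciliary kinesin that regulates Gli proteins, was lower in all 3 settings, by -0.69 ± 0.0521, -0.57 ± 0.0889 and -1.43 ± 0.277 on the log2 scale (adjusted p = 4.01e-06, 0.00106 and 0.00487, edgeR). In cartilage the kinase gene Stk36 was higher, at a mean of 12.05 CPM in cKO and 2.196 CPM in control (2.40 ± 0.430, adjusted p = 0.00268), and Prkacb, a catalytic subunit of protein kinase A, was lower (-0.52, adjusted p = 0.0216). Gpr161, a ciliary receptor that restrains the pathway, was higher at both culture days (0.54 and 0.54, adjusted p = 2.11e-04 and 0.0433); without cKO day 3 replicate 4 none of the 14 was higher at day 3 and 5 were lower. Tulp3 was lower at both days (-0.29 and -0.46), as was Btrc, which directs Gli3 to processing (-0.39 and -0.32). At day 0 the kinase genes Gsk3b and Prkaca were higher (0.38 and 0.35) and Prkacb was lower (-0.45). Sufu, the main inhibitor that binds Gli proteins, was not called in any setting (0.06, 0.04 and -0.57, adjusted p = 0.375, 0.695 and 0.339); it was named after its values were seen.

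Of 18 genes of ciliary transport, 9 were lower and 4 higher at day 0, and 8 were lower and 2 higher at day 3. Of all genes tested, 64.5% were called at day 0 and 48.1% at day 3. The largest falls were those of Ift122, Ift172 and Dync2li1 at day 0 (-1.02, -1.02 and -1.01) and of Ift88 and Ift20 at day 3 (-1.02 and -0.84, adjusted p = 9.55e-05 and 1.80e-04, edgeR), followed by Dync2h1 (-0.52). Rpgrip1l, a gene of the ciliary transition zone, was higher at both days (1.36 and 1.91, adjusted p = 1.74e-06 and 2.10e-05), as was the motor gene Kif3a (0.21 and 0.31), and Ift74 was higher at day 0 (0.31). In cartilage 0 of 13 tested were called by edgeR or DESeq2, and 1 had an unadjusted p under 0.05 in edgeR.

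Genes known to respond to Hedgehog in mesenchyme did not all follow Gli1 and Ptch1. Of 13 tested at day 0, 6 were higher and 4 lower, where 33% and 31.6% of all genes were. Of 12 at day 3, 3 were higher and 3 lower, where 25.5% and 22.6% of all genes were. The forkhead genes Foxf1 and Foxf2 were higher in cKO at both days (1.96 and 2.01 at day 0, 1.47 and 1.60 at day 3, adjusted p from 2.26e-05 to 0.0237, edgeR), as was Igfbp6 (1.26 and 2.45). Nkx3-2, a transcription factor that holds back chondrocyte maturation, was lower at both days (-0.97 and -1.68, adjusted p = 2.73e-05 and 3.42e-05), as was Foxc2 (-0.62 and -0.93). Smaller falls were those of Sfrp1 at day 0 (-0.29) and Rab34 at day 3 (-0.34). The cyclin gene Ccnd1 was higher at day 0 (1.51, adjusted p = 1.48e-08) and in cartilage (1.17, adjusted p = 5.59e-05) and was at 0.01 at day 3 (adjusted p = 0.961). In cartilage Ccnd2 was also higher (0.62, adjusted p = 0.00906) and none of the 9 tested was lower with all libraries; without cKO replicate 2, 2 were higher and 1 lower.

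**Figure D5:**
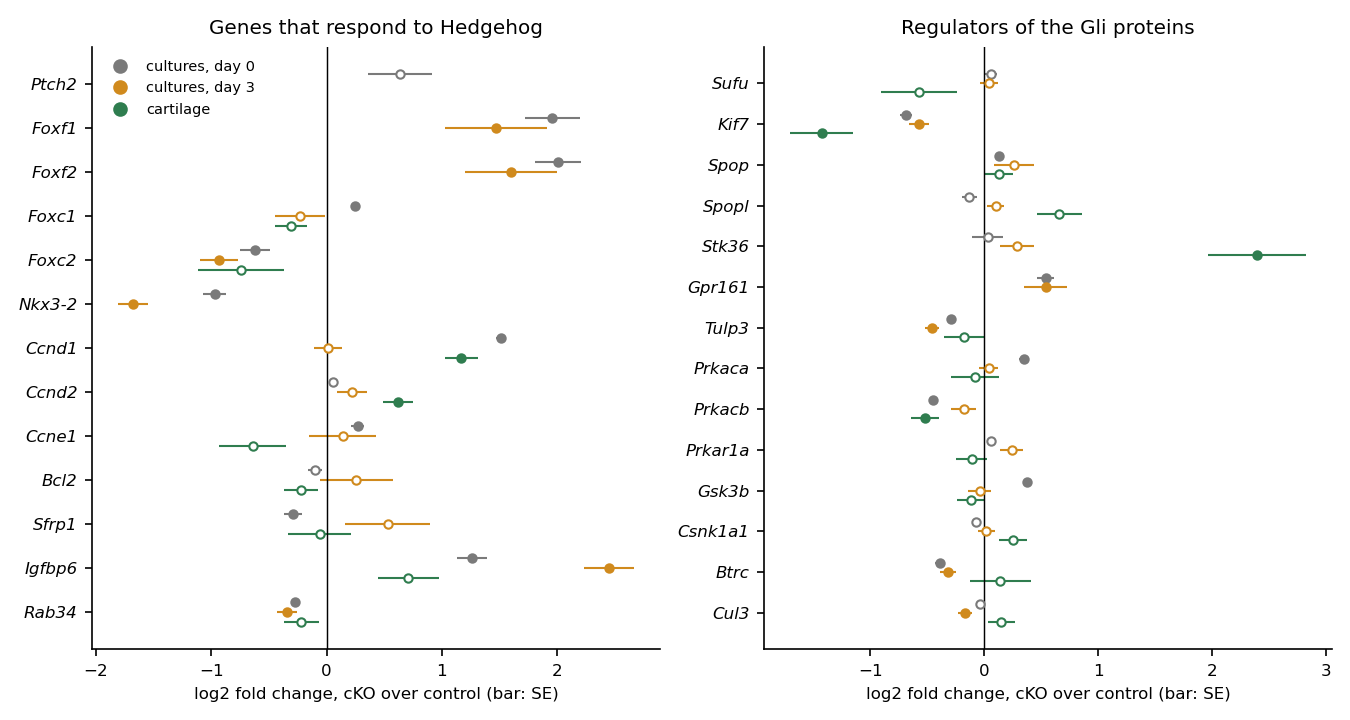
Log2 fold change, cKO over control (x axis), of genes that respond to Hedgehog (left) and of regulators of the Gli proteins (right), in cultures at day 0, cultures at day 3 and cartilage; bars are ± 1 SE and filled points passed the test. Foxf1, Foxf2 and Igfbp6 lie to the right of 0 and Nkx3-2 and Foxc2 to the left in cultures, and Kif7 is filled on the left in all 3 settings.

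Downstream of Pth1r, 13 of 24 tested genes were higher and 6 lower at day 0, where 33% and 31.6% of all genes were. At day 3, 9 were higher and 5 lower, where 25.5% and 22.6% of all genes were. The medians were 0.21 and 0.23. Without cKO day 3 replicate 4, 10 were higher and 8 lower at day 3. The kinase gene Sik1, whose product acts on class II histone deacetylases and is held back by protein kinase A, was higher at both days (1.33 and 2.46, adjusted p = 2.87e-06 and 2.92e-05, edgeR), as was Arrb1, a beta-arrestin that takes part in receptor uptake (0.95 and 2.11). Arrb2 was higher at day 0 (0.63) and the phosphodiesterase gene Pde4b at both (0.43 and 1.83). The adenylyl cyclase gene Adcy9 was lower at both (-1.07 and -0.97, adjusted p = 7.64e-07 and 1.63e-04), and Zfp521, a nuclear factor downstream of PTHrP, was lower as well (-0.23 and -0.81, adjusted p = 6.43e-04 and 0.0495). In cartilage 1 of 19 tested was called, Prkacb, already given; without cKO replicate 2, 2 were higher and 1 lower.

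Markers of prehypertrophic and hypertrophic cells moved differently in the 3 settings. The list also holds genes of late maturation and Ibsp, which is in the osteoblast list too. It therefore does not mark only the cells that make Ihh. At day 0, 7 of 14 were lower and 3 higher, where 31.6% and 33% of all genes were. At day 3, 3 were lower and 6 higher, where 22.6% and 25.5% of all genes were. In cartilage 5 were lower and none higher, where 3.04% and 3.15% of all genes were. Without the libraries that stood apart, 4 were lower and 6 higher at day 3 (without cKO replicate 4) and 7 were lower in cartilage (without cKO replicate 2). Panx3, a channel gene of prehypertrophic chondrocytes, was lower in each (-1.57, -2.37 and -1.65, adjusted p = 2.30e-05, 5.52e-04 and 0.00596, edgeR), as Ihh was. Bmp6 and the cell cycle inhibitor gene Cdkn1c were lower in cultures (-1.83 and -2.74, and -1.33 and -2.89). At day 3 Spp1, Col10a1 and Alpl, genes of matrix mineralization and late maturation, were higher (3.52, 3.28 and 2.87, adjusted p = 8.07e-05, 0.0402 and 1.21e-04), though the groups overlapped for Col10a1. From day 0 to day 3 Col10a1 fell in control, from a mean of 1193 to 42.89 CPM (-4.80, adjusted p = 0.00125, edgeR). In cKO it did not rise, with means of 694.6 and 404.3 CPM (-0.78, adjusted p = 0.469, edgeR). The summed level of the 14 lay at 2255 to 2307 CPM in control and 1404 to 1535 CPM in cKO at day 0, and at 1489 to 1932 and 4677 to 5489 CPM at day 3. Single genes made up much of these sums. Col10a1 had a mean of 1193 CPM in control at day 0, and Spp1 had one of 3051 CPM in cKO at day 3. Spp1, Runx2 and Runx3 were higher at day 0 (0.98, 0.46 and 0.46, adjusted p = 0.0023, 0.00127 and 5.19e-04, edgeR). Alpl and Runx2 were lower in cartilage (-1.16 and -0.66, adjusted p = 0.0272 and 0.0321, edgeR), though not among the 3 largest falls there. In cartilage Mmp13, the collagenase of terminal chondrocytes, and Col10a1 were lower (-2.17 and -1.48, adjusted p = 0.00925 and 0.0321), at means of 47.5 against 200 CPM and 171.0 against 420.7 CPM.

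The genes whose profile lay closest to that of Ihh over the 14 culture libraries, by the root mean square difference of centred log2 CPM among 12286 genes, were S100b (0.312), Panx3 (0.316), Efs (0.347), Usp11 (0.372) and Wwp2 (0.375). Over the 8 cartilage libraries, among 8792 genes, they were Spp1 (0.395), Lif (0.453), Vit (0.463), Foxd2 (0.486) and Foxc2 (0.506). For Gli1 the closest in cultures were Sfrp5 (0.444), Extl1 (0.457), Rflna (0.487), Trim66 (0.493) and Gal3st1 (0.504), and in cartilage Cul4a (0.126), Itga9 (0.152), Mpv17l2 (0.168), Foxo4 (0.179) and Mpp1 (0.189). The 2 genes had no closest gene in common in either setting. These likenesses describe the libraries, which share genotype, day and depth.

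Markers of other cell types also moved with genotype in cartilage. Blood and immune markers were lower for 3 of 4 tested, at a summed 172.6 to 837.5 CPM in control and 31.2 to 367.5 CPM in cKO. These 3 were the hemoglobin genes Hbb-bs, Hba-a1 and Hba-a2. The immune gene Lyz2 was not called (-0.33, adjusted p = 0.716, edgeR), and the other immune markers had too few counts to test. Osteoclast markers were lower for 3 of 3, at 123.4 to 445.9 and 57.4 to 115.5 CPM. Of all genes tested in cartilage, 3.04% were lower and 3.15% higher. Chondrocyte markers were lower for 4 of 13, at 72540 to 107700 and 35450 to 65890 CPM, and the only muscle marker tested, Des, was higher (1.44, adjusted p = 0.0241, edgeR). Without cKO replicate 2, 4 of 5 blood and immune, 2 of 3 osteoclast and 1 of 13 chondrocyte markers were lower and Des was not called. Perichondrial and fibroblast markers summed to 46920 to 87230 CPM in control and 24700 to 54850 CPM in cKO; with all libraries edgeR called 0 of 10 (2 at an unadjusted p under 0.05) and DESeq2 1, and without cKO replicate 2 edgeR called 3 lower. Their part in the cartilage values of Ihh, Pth1r and the other members was not tested.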

How the data were processed

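RNA was sequenced from 14 chondrocyte cultures (directional libraries) and 8 cartilage samples (barcoded 3′ libraries with molecular identifiers), per the labels' protocols. The submitters' processing notes name UMI-tools 1.1.1, Trim Galore 0.6.7, HISAT2 2.2.1, featureCounts 2.0.1, DESeq2 1.34.0 and the build GRCm38, and the strand setting of the counting was not given in the sources used here. The culture tables the authors deposited hold estimated counts per Ensembl gene, which were rounded to whole numbers and given symbols from GENCODE M21 (34582 of 34866 IDs matched). For cartilage the authors deposited a table of whole-number counts, used for the results, and a table of estimated counts, used as an alternative.

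Groups were compared with edgeR 4.0.16 in R 4.3.3 (quasi-likelihood test, TMM factors, filterByExpr with a minimum count of 10 and a total of 15, Benjamini-Hochberg adjustment over all genes tested, threshold 0.05), with sex as a covariate in cartilage. Each genotype comparison was fitted on its own samples, and the changes with day and the interactions on all cultures or all cartilage samples. Intervals are 95% from the fit. CPM use TMM-scaled totals, on the joint scale of 14 cultures. A floor of 3 counts is worth 0.058 to 0.0719 CPM at day 0, 0.159 to 0.208 at day 3 and 1.59 to 2.73 in cartilage; floors and exact intervals cover counting error only. Ribosomal RNA made up 9.96 to 23.6% of the cartilage counts.

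Alternatives were RLE size factors, no filter, DESeq2 1.42.0, a replicate block, leaving out each library, a fit of all 14 cultures, each genotype alone, estimated counts, no ribosomal RNA and no sex covariate; the counts over lists without single libraries were added after seeing the data. The members and lists were chosen with earlier results of these data known. All 9 members were named in each comparison, and from each list up to 3 higher and 3 lower called genes with the largest fold change per genotype comparison. Sufu, and Alpl and Runx2 in cartilage, were named in addition. The 5 genes closest to Ihh and to Gli1 were taken by root mean square difference of centred log2 CPM (offset 0.5). The scripts were tested on simulated counts.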

Additional observations from a re-analysis of the deposited data

Results flagged for a closer look

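In groups of 4 libraries, a library was singled out where its gap to the nearest other library exceeded the share of the group's range that Dixon's test allows at 95%. Of 36 groups of member levels, 7 held such a library, where chance gives about 1 in 20. Of these, 4 were cKO day 3 replicate 4: Ihh was lowest there at 0.461 CPM (1.28 to 1.35 in the others), Smo at 134.9 CPM (174.9 to 180.1) and Gli3 at 33.8 CPM (57.5 to 60.3), while Pthlh was highest at 4.95 CPM (0 to 0.337). In the control cultures at day 3, Pthlh was lowest in replicate 1, at 0 CPM against 0.240 to 0.271 in the others, which rest on 4 or 5 counts each. In cartilage, Ihh was highest in cKO replicate 2, at 31.6 CPM against 3.48 to 7.38, and Gli1 was lowest in control replicate 4, at 9.05 CPM against 14.4 to 15.0.

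The genotype effect on Ptch1 differed between day 3 and day 0 by -0.55 on the log2 scale (adjusted p = 0.0396, edgeR, interaction, from 0.006 to 0.099 over 18 alternatives).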

How the results depend on the processing

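Of 940 values of single members under the alternatives, 880 kept their direction and side of the threshold, 46 lost a call, 13 gained one and 1 reversed: Pthlh from day 0 to day 3 in cKO cultures, from -1.72 without cKO day 3 replicate 4 to 1.39 without replicate 2. In cartilage 2 members were called; DESeq2 called 1, the fit without sex 0 and the fits leaving out a library 0 to 3. For the change in control cultures 2 were called, against 4 with the samples of that genotype alone and 2 to 4 leaving out a library. For the difference of genotype effects between days 1 was called, against 0 without the filter and 0 to 1 leaving out a library. Leaving out a library gave 7 to 8 at day 0 (8 with all), 5 to 6 at day 3 (6) and 4 to 7 for the change in cKO cultures (6).

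Replicate numbers are shared between groups, but correlations of same-numbered libraries ran from -0.231 to 0.287, so they were not taken as pairs. With a replicate block 8 members were called at day 0, 5 at day 3, 3 in cartilage, 3 and 5 for the changes in control and cKO, and 2 for the difference between days.

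Over all genes, the calls at day 0 were 10023 and 6260 in the fit of all cultures. In cartilage they were 544, against 1044 without the filter, 357 with DESeq2 and 362 without cKO replicate 4, and for the difference between days 2509, against 1591 to 4051. For the sex difference 1 gene was called, against 33 without the filter and 4 with the block. The causes were not tested. Pthlh in cartilage and Pthlh and Hhip at day 3 rest on 12 counts or fewer per library, except in 1 library, and were not tested for genotype.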
